A study of Homo sapiens with 2 samples.

Results

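Primary (azurophil) granules are the first secretory granules that myeloid precursors make, and their proteases and ribonucleases are stored for killing of microbes. The 8 genes described here were taken by name, as azurophil granule genes and genes of related proteins: MPO, ELANE, PRTN3, AZU1, CTSG, RNASE2, SERPINB1 and SRGN, of 60623 genes in the count tables. All 8 were matched by symbol, and all 8 reached the minimum used here, 20 counts over both libraries together, as did 15660 genes in all. OCI-AML3 is a human acute myeloid leukaemia line, labelled as of bone marrow origin and wild-type genotype. The cells, grown in MEM alpha medium with 20% serum, received either omipalisib (GSK2126458), an inhibitor of PI3K and mTOR kinases, at 50 nM or its vehicle DMSO, both for 24 h. Each group had 1 library, so the differences are without a replicate check and without a p-value. The 95% intervals reflect the number of reads alone and speak of these 2 libraries rather than of the treatments. Fewer cells of a type and less RNA per cell cannot be told apart in such bulk RNA.

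Neutrophil elastase (ELANE), proteinase 3 (PRTN3) and cathepsin G (CTSG) are related serine proteases that are active at neutral pH once released. Azurocidin (AZU1) belongs to the same family but has lost protease activity and acts as an antimicrobial protein and a chemoattractant. Myeloperoxidase (MPO) is a haem enzyme that makes hypochlorous acid, RNASE2 encodes eosinophil-derived neurotoxin, a secreted ribonuclease, and serglycin (SRGN) is the proteoglycan whose sulfated chains hold the proteases in the granule. SERPINB1 is a cytosolic serpin that inactivates elastase, proteinase 3 and cathepsin G when these leak from granules.

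The stretch of coding sequence around the catalytic serine shows how the 4 relatives differ. Sequences were read from GENCODE release 29 transcripts (GRCh38), on the coding strand. Capitals mark the codon of the catalytic serine in ELANE and the codons aligned to it in the others, which encode serine in PRTN3 and CTSG and glycine in AZU1.
ELANE: ttcggggacTCCggcagcccc
PRTN3: ttcggagacTCAggtggcccc
CTSG: aagggggatTCCggaggcccc
AZU1: aatggggacGGGggcaccccc
The codon of the catalytic histidine, in capitals below, encodes histidine in ELANE, PRTN3 and CTSG and serine in AZU1.
ELANE: tcggccgcgCACtgcgtggcg
PRTN3: acggccgcgCACtgcctgcgg
CTSG: acagcagctCATtgctgggga
AZU1: accgcggccAGCtgcttccaa

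The comparison asks how messages of the granule proteases, their carrier and their inhibitor differed after a day in omipalisib. CTSG and PRTN3 were lower in the omipalisib library, at 0.5004 and 0.514 of their DMSO level, and RNASE2 at 0.659. SERPINB1 was higher, at 1.93 times its DMSO level. ELANE was lower by less, AZU1 was slightly higher, SRGN differed by little, and MPO was barely detected in either library. A gene was counted as lower or higher where its ratio after scaling reached 1.5 either way and its interval excluded a ratio of 1. By that rule 3 of the 8 genes were lower and 1 was higher. Over all 15660 genes, 4.76% were lower and 9.58% were higher by the same rule. Among the 7748 genes with 1000 or more counts over both libraries, 3.83% were lower and 4.01% higher. The median log2 ratio of the 8 genes (omipalisib over DMSO) was −0.50 and that of all genes measured was 0.0029. A ratio is relative to the rest of its library and not per cell. The interval excluded 0 for 7 of the 8, all but MPO, and the share of all genes with such an interval was not computed. The interval covers counting error alone, and at high counts it excluded 0 even for SRGN, at 0.04 (0.02 to 0.05).

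**Figure D1:**
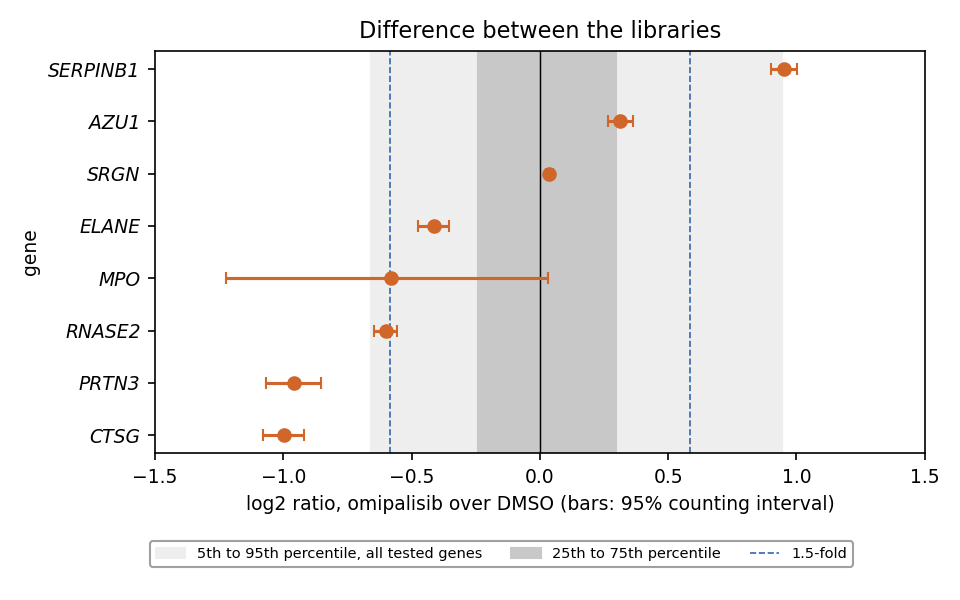
Log2 ratio of each gene, omipalisib over DMSO (horizontal axis), with bars for the 95% counting interval, over bands that hold the central ratios of all 15660 genes measured. CTSG (−0.999), PRTN3 (−0.96) and RNASE2 (−0.60) lie at or beyond the 1.5-fold line on the left and SERPINB1 (0.95) on the right, while the bar of MPO reaches 0.

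CTSG, which lies on chromosome 14 (24573518 to 24576250, minus strand, build GRCh38), was counted 3988 times with DMSO and 1769 times with omipalisib. Its level, as TPM (counts per exon length, scaled to the same sum in each library), was 381 in DMSO and 198 in omipalisib. The log2 ratio was −0.999 (−1.08 to −0.92), and 1.56% of the measured genes had a ratio as low or lower. Proteinase 3, the antigen of the autoantibodies of granulomatosis with polyangiitis, had 2237 counts and 1020 counts. PRTN3 was at 264 TPM in DMSO and 141 TPM in omipalisib, with a log2 ratio of −0.96 (−1.07 to −0.85). Among the 8 genes these were the proteases with the largest differences, and CTSG and PRTN3 kept their proportion to each other. The TPM of CTSG was 1.44 times that of PRTN3 in DMSO and 1.40 times in omipalisib, a log2 change of −0.04 (−0.17 to 0.10).

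ELANE, the gene mutated in most severe congenital and cyclic neutropenia, had 5561 counts in DMSO and 3700 in omipalisib, 708 and 552 TPM. Its log2 ratio of −0.41 (−0.47 to −0.35) was below 1.5-fold. Relative to ELANE in the same library, which needs no scaling between libraries, CTSG was lower by a log2 change of −0.58 (−0.69 to −0.48) and PRTN3 by −0.55 (−0.67 to −0.42). Thus the 3 active proteases were all lower but not in equal proportion. AZU1 went the other way, with 6686 and 7367 counts, 491 and 633 TPM, and a log2 ratio of 0.31 (0.27 to 0.36). Against AZU1, PRTN3 had a log2 change of −1.27 (−1.39 to −1.16), CTSG −1.31 (−1.41 to −1.22) and ELANE −0.73 (−0.80 to −0.65). In all, 13 such pairs were computed, and their intervals combine the counting intervals of both genes.

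Of the summed TPM of the 4 relatives, ELANE held 38.4% in DMSO and 36.2% in omipalisib, and AZU1 held 26.6% and 41.6%. CTSG went from 20.7% to 13.0% and PRTN3 from 14.3% to 9.26%. By TPM the most abundant of the 4 was therefore ELANE in DMSO and AZU1, the relative without the catalytic serine and histidine, in omipalisib. This order and these shares rest on the exon lengths used, 1782 bases for AZU1 and 1028 for ELANE. By counts alone AZU1 was above ELANE in both libraries, with 6686 against 5561 in DMSO. Summed over ELANE, PRTN3 and CTSG, the level was 1353 TPM in DMSO and 891 TPM in omipalisib, 0.658 of the DMSO value.

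**Figure D2:**
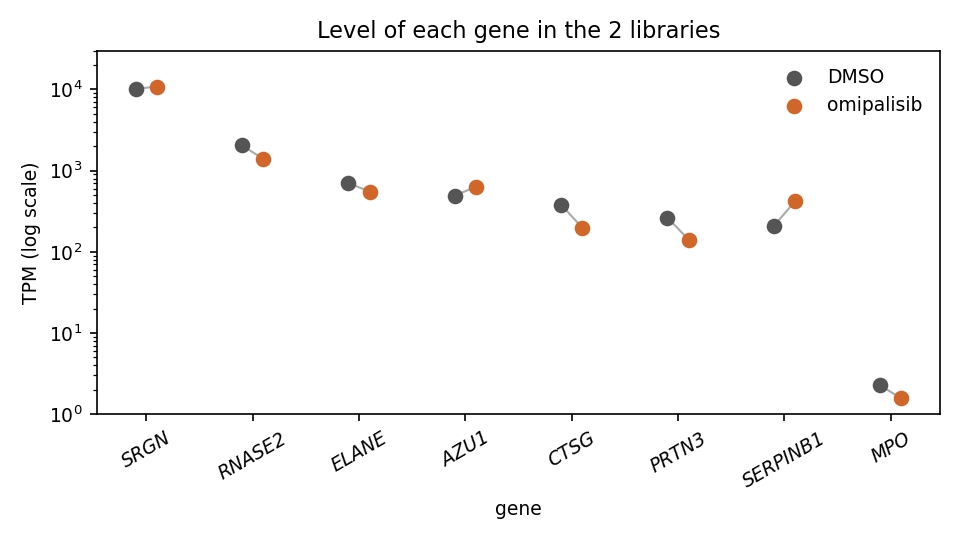
Level of each gene in TPM (vertical axis, log scale) in the DMSO and the omipalisib library, 1 point per library, ordered by the DMSO level. SRGN is highest at 10187 and 10848 TPM and MPO lowest at 2.26 and 1.56 TPM, and the lines slope down for ELANE, CTSG and PRTN3 and up for AZU1 and SERPINB1.

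SERPINB1 lies on chromosome 6 (2832332 to 2841959, minus strand). It had 4854 counts in DMSO and 8325 in omipalisib, 208 and 419 TPM, a log2 ratio of 0.95 (0.90 to 1.003). Of the genes measured, 95.1% had a ratio as low or lower. The TPM of SERPINB1 was 0.154 times the summed TPM of the 3 proteases it inhibits in DMSO and 0.470 times in omipalisib, 3.05 times higher. Gene by gene, the log2 change of SERPINB1 was 1.37 (1.29 to 1.45) relative to ELANE, 1.91 (1.79 to 2.03) relative to PRTN3 and 1.95 (1.86 to 2.05) relative to CTSG. By TPM, all 3 protease messages were above that of SERPINB1 in DMSO, and in omipalisib only ELANE was. This order and the ratios to the sum rest on the exon lengths used, 3047 bases for SERPINB1, 1368 for CTSG and 1107 for PRTN3. By counts alone SERPINB1, at 4854 in DMSO, was already above CTSG at 3988 and PRTN3 at 2237, and below ELANE at 5561. In omipalisib its 8325 counts were above those of all 3. These are levels of messages, and protein was not measured.

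SRGN was the most abundant of the 8 genes, ranked 7 of 19916 protein-coding genes by TPM in both libraries. It had 94765 and 86158 counts, 0.359% (0.357 to 0.362, exact Clopper-Pearson) of all counted fragments in DMSO and 0.381% (0.379 to 0.384) in omipalisib. Its log2 ratio of 0.04 (0.02 to 0.05) excluded 0 by counting error, but it turned to −0.0020 with the size factors of DESeq2. The TPM of SRGN went from 5.52 to 7.12 times the summed TPM of ELANE, PRTN3, CTSG and AZU1. That sum was 0.827 of its DMSO value in omipalisib, although AZU1 itself was higher.

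RNASE2 was the next of the 8 in level, ranked 36 in DMSO and 50 in omipalisib, with 2048 and 1401 TPM. It had 11272 and 6584 counts, for a log2 ratio of −0.60 (−0.65 to −0.56), an interval that spans the 1.5-fold line. Scaled by total counts, its log2 ratio was −0.55, short of that line. RNASE3, the eosinophil cationic protein and the closest relative of RNASE2, had 618 and 443 counts, for a log2 ratio of −0.31 (−0.49 to −0.13). Windows of 50 bases were compared to see how far reads could be confused: 3.26% of those in RNASE2 transcripts also occur in RNASE3 or an unnamed gene, and none of 100 bases does. For AZU1, 4.66% of 50-base windows occur in transcripts of other genes, and none of 100 bases. For the other 6 genes no 50-base window was shared.

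In DMSO the order of levels by TPM, which depends on the gene lengths used, was SRGN, RNASE2, ELANE, AZU1, CTSG, PRTN3, SERPINB1 and MPO. In omipalisib AZU1 stood above ELANE, and SERPINB1 above CTSG and PRTN3. With 1 library each, the spread between samples that would tell neighbours in this order apart is unknown.

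MPO, which is among the most abundant messages of normal promyelocytes, had 61 counts in DMSO and 36 in omipalisib. At 2.26 and 1.56 TPM it ranked 10498 and 11023 among protein-coding genes. Its log2 ratio was −0.58 (−1.22 to 0.03), so by this measure no difference was detectable at this depth. It met the rule for lower genes, interval included, with the size factors of DESeq2 (−0.62) and with the DMSO library thinned to the depth of the other (−0.63). In the same libraries ELANE was at 708 and 552 TPM, so that MPO was at 0.0032 and 0.0028 times the level of ELANE.

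ELANE, PRTN3 and AZU1 stand side by side on the plus strand of chromosome 19, AZU1 at 825097 to 832018, PRTN3 at 840999 to 848175 and ELANE at 851014 to 856247. The gap between AZU1 and PRTN3 is 8.98 kb and that between PRTN3 and ELANE 2.84 kb. Along this order the log2 ratios were 0.31, −0.96 and −0.41. CFD, the complement factor D protease gene 3.42 kb beyond ELANE, had 2640 and 2976 counts, for a log2 ratio of 0.35 (0.27 to 0.42). On the other side PLPPR3, 3.12 kb from AZU1, had −0.22 (−0.28 to −0.16). The gene with the lowest ratio thus lay between neighbours with higher ones.

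**Figure D3:**
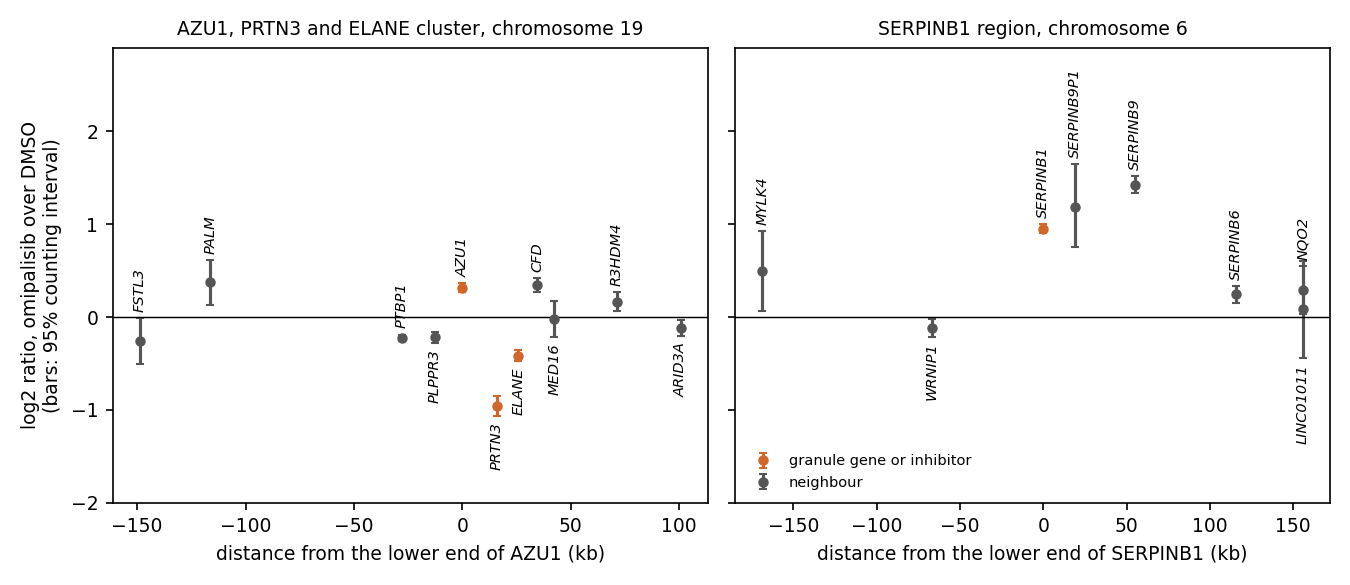
Log2 ratio, omipalisib over DMSO (vertical axis, bars for the 95% counting interval), of genes by distance in kb from AZU1 (left) and from SERPINB1 (right), for genes within 150 kb of either with at least 20 counts over both libraries. On the left PRTN3 at −0.96 lies between AZU1 at 0.31 and ELANE at −0.41, and on the right SERPINB1, SERPINB9P1 and SERPINB9 lie at 0.95, 1.19 and 1.42.

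Near SERPINB1, SERPINB9, which encodes the inhibitor of granzyme B and lies 45.3 kb away, had 1384 counts in DMSO and 3295 in omipalisib, a log2 ratio of 1.42 (1.33 to 1.52). The pseudogene SERPINB9P1 between them had 65 and 132 counts and 1.19 (0.76 to 1.65), and its counts are uncertain where it resembles SERPINB9. SERPINB6, a serpin that inhibits cathepsin G, 106 kb from SERPINB1, had a log2 ratio of 0.24 (0.16 to 0.33), and WRNIP1 on the other side had −0.12 (−0.21 to −0.03). Of 37 measured genes within 150 kb of any of the 8, 3 were at least 1.5-fold higher and 0 were lower, against 9.58% and 4.76% of all genes. The third was an unnamed gene 64.8 kb from CTSG with 85 and 131 counts, for a log2 ratio of 0.79 (0.39 to 1.21). Beside RNASE2, the pseudogene RNASE2CP had −0.24 (−0.42 to −0.07) and METTL17 had −0.07 (−0.15 to 0.01). Beside MPO, TSPOAP1 had −0.14 and MKS1 0.06, and LPO and EPX, the peroxidase genes of the same region, had 0 counts in DMSO and 0 and 1 in omipalisib. Beside SRGN, VPS26A had −0.19 and KIFBP −0.31.

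Promoter sequences, 250 bases before to 50 after the annotated start, were found for 5 of the 8 genes in the RefSeq table of GRCh38.p14. They are shown for PRTN3 and AZU1, which are neighbours with ratios of opposite sign, and for CTSG, whose ratio was close to that of PRTN3 on another chromosome. Capitals mark matches, on either strand, to 6 short motifs of myeloid or drug-related factors or of the core promoter. These were GAGGAA for PU.1, TTGCNNAA for C/EBP, CAACNG for MYB, TGNGGT for RUNX, TATAAN for the TATA box and GTAAACA for FOXO.
PRTN3, chr19:840749-841048, plus strand: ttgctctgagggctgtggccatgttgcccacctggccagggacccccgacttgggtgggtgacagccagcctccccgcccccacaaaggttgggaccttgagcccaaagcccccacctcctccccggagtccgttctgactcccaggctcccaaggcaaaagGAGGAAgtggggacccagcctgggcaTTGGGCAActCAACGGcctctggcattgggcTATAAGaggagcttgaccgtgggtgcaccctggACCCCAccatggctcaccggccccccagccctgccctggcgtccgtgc
AZU1, chr19:827587-827886, plus strand: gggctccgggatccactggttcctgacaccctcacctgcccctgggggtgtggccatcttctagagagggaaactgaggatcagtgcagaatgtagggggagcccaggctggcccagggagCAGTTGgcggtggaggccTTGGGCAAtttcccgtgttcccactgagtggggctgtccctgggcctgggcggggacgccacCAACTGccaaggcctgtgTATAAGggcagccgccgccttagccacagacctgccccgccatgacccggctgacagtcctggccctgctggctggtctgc
CTSG, chr14:24576201-24576500, minus strand: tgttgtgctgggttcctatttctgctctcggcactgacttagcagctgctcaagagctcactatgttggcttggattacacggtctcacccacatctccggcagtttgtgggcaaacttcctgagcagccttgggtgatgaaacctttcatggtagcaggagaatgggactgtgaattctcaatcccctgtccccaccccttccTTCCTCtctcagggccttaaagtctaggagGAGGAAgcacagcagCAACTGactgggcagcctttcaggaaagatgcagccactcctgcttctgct
Counted from the start at 0, PRTN3 held a PU.1 match at −88 to −83, a C/EBP match at −62 to −55 and a MYB match at −52 to −47. It also held a TATA match at −31 to −26 and a RUNX match at 2 to 7. AZU1, whose RefSeq start lies inside the longer GENCODE gene, held a TATA match at the same place, a C/EBP match with the same letters at −111 to −104, 2 MYB matches and no PU.1 match. CTSG held 2 PU.1 matches, at −46 to −41 and −16 to −11, 1 MYB match and no TATA or C/EBP match. SERPINB1 held only a TATA match, at −30 to −25, and RNASE2 held C/EBP, MYB, RUNX and TATA matches. The TATA match of RNASE2 lay at −219 to −214 and on the opposite strand, unlike those of PRTN3, AZU1 and SERPINB1. No FOXO match was found in the 5 windows. No marked matches overlapped. Of 35116 promoters of that length in the table, 27.9% held the PU.1 motif, 10.5% the C/EBP, 32.9% the MYB, 43.2% the RUNX, 20.4% the TATA and 3.42% the FOXO motif. A match is a description of letters only.

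For other proteins of the same granule, 24 genes were listed and 18 measured. Of these, 0 were lower and 1 was higher, against 4.76% and 9.58% of all genes, and their median log2 ratio was −0.0033. The higher gene was the lysosomal fucosidase FUCA1, with 525 and 863 counts and 0.89 (0.73 to 1.05). LYZ, lysozyme, had 8323 and 5648 counts, 617 and 491 TPM, and −0.39 (−0.43 to −0.34). CTSC, the dipeptidyl peptidase that activates elastase, proteinase 3 and cathepsin G, had 7743 and 5691 counts and −0.27 (−0.32 to −0.22). PRSS57, a further granule protease, had 0 and 3 counts. The antimicrobial genes BPI, DEFA1, DEFA1B, DEFA3 and DEFA4 had 0 counts in both libraries, where 3 counts would be 0.116 CPM in DMSO and 0.131 CPM in omipalisib. DEFA1, DEFA1B and DEFA3 are near-identical copies and BPI overlaps another gene on its strand, so counting can miss their reads.

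Genes of the secondary and tertiary granules, which form later in neutrophil maturation, were in part not detected, with 7 of 23 at 0 counts in both libraries. The 9 measured genes included CYBB, the catalytic subunit of the phagocyte oxidase, with 5487 and 4977 counts, for a log2 ratio of 0.03 (−0.02 to 0.09). Of the 9, 3 were lower and 2 were higher, against 4.76% and 9.58% of all genes, and the median log2 ratio was −0.33. LTF, OLFM4 and CEACAM8 were among those at 0. The lower genes were SLPI, a secreted elastase inhibitor, with 87 and 21 counts and −1.85 (−2.64 to −1.18), the haptoglobin gene HP (−1.72, −2.48 to −1.07) and the gelatinase MMP9 (−1.11, −1.84 to −0.45). The higher genes were TCN1, a vitamin B12 binder, with 52 and 189 counts and 2.03 (1.59 to 2.51), and CHI3L1 (1.71, 1.33 to 2.12).

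Protease inhibitors were measured at 20 of 26 listed genes, SERPINB1 among them, with 4 higher, 2 lower and a median log2 ratio of 0.26. The shares over all genes were 9.58% higher and 4.76% lower. Besides SERPINB1 and SERPINB9, SERPINE2, which encodes the inhibitor protease nexin 1, had 1389 and 2096 counts and 0.77 (0.67 to 0.87). SERPINA1, the plasma inhibitor of elastase, had 622 and 913 counts and 0.73 (0.58 to 0.88), and was named after its values were seen. The lower genes were SLPI and SERPINI1, a neuronal serpin, with −0.75 (−1.26 to −0.28). In the ribonuclease family 5 of 12 genes were measured, with RNASE2 lower and RNASE6 higher at 0.64 (0.44 to 0.84). RNH1, the cytosolic inhibitor that binds these enzymes, had −0.21 (−0.27 to −0.16).

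Of 25 measured genes that build and sulfate the chondroitin chains of serglycin, 1 was lower and 2 were higher, with a median log2 ratio of −0.03. For this list and the next, the shares over all genes were 4.76% lower and 9.58% higher. CHST15, which adds the second sulfate of the E-type chain, had 64 and 174 counts and 1.61 (1.195 to 2.05), UST had 14 and 25 counts and 0.99 (0.01 to 2.07), and CHST3 had 39 and 17 counts and −1.001 (−1.94 to −0.17). With the size factors of DESeq2 the counts were 2 lower and 1 higher. Of 34 measured genes of granule sorting and release, 1 was higher. That was LYST, the gene mutated in Chediak-Higashi syndrome with its giant granules, with 16358 and 21986 counts, for a log2 ratio of 0.60 (0.57 to 0.63). With the size factors of DESeq2 it fell short of 1.5-fold and 0 of the 34 were higher. Their median was −0.02.

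A list of chaperones that fold glycoproteins such as MPO in the endoplasmic reticulum, together with the cargo receptor genes LMAN1 and MCFD2 and the protease gene FURIN, included 5 lower genes of 13 and 0 higher ones, and their median log2 ratio was −0.32. The shares over all genes, for this list and those below, were 4.76% lower and 9.58% higher. CALR, calreticulin, which binds the MPO precursor, had 34968 and 15329 counts and −1.02 (−1.04 to −0.99). PDIA4, a disulfide isomerase, had −0.78 (−0.83 to −0.73) and HSPA5, the chaperone BiP, had −0.64 (−0.67 to −0.61). None of LMAN1, MCFD2 and FURIN was among the 5, with log2 ratios of 0.0030, 0.03 and 0.42. The remaining chaperones of the 5, PDIA3 at −0.592 and HSP90B1 at −0.585, were at the 1.5-fold line, and with scaling by total counts 3 of the 13 were lower. Of 11 genes of haem synthesis, 1 was lower, the mitochondrial transporter ABCB10 with −0.63 (−0.72 to −0.54), and the median was −0.13. With scaling by total counts 0 of the 11 were lower. Of 13 other serine proteases and peroxidases, 2 were measured. GZMA, granzyme A, had 679 and 325 counts and −0.89 (−1.08 to −0.70), and the other was CFD.

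No gene of 18 measured myeloid transcription factors passed 1.5-fold, and their median log2 ratio was 0.07, while 1 passed on the higher side with scaling by total counts. The shares over all genes with TMM scaling were 4.76% lower and 9.58% higher. IRF8, a factor of monocyte and dendritic cell fate, had 16581 and 12814 counts and −0.20 (−0.23 to −0.16), and MYC had 8106 and 9694 counts and 0.43 (0.39 to 0.47).

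**Figure D4:**
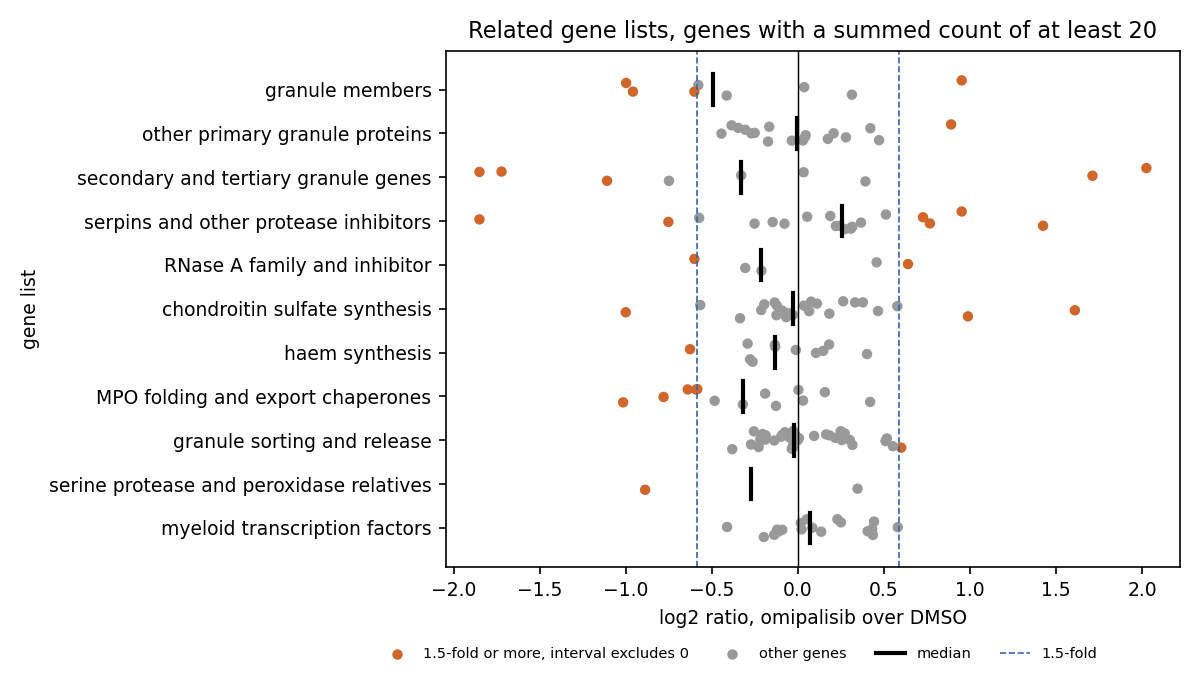
Log2 ratio, omipalisib over DMSO (horizontal axis), of each gene with at least 20 counts in the 8 genes and in 10 lists of related genes, with the median of each list as a black bar. The 5 genes of the chaperone list past the 1.5-fold line are all on the left, no myeloid transcription factor is past it with TMM scaling (1 with total counts), and genes of the later granules lie on both sides.

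The libraries carried 26367832 counts in DMSO and 22599164 in omipalisib. Of 16 myeloid markers, 13 in DMSO and 14 in omipalisib reached 1 CPM, with CD33 at 2661 and 2937 counts. The summed level of these markers was 1675 and 1827 TPM. Of 15 measured, 2 were higher, 1 was lower and 12 were neither, against 9.58% higher and 4.76% lower over all genes. Their median log2 ratio was 0.17, and their part in the granule gene differences was not tested. These markers include MPO, which is among the 8 genes, and LYZ and CD68, from the list of other proteins of the same granule. The higher genes were CSF1R and CSF3R, growth factor receptors of monocytes and neutrophils. CSF1R had a log2 ratio of 1.66 (1.54 to 1.77) and CSF3R 1.098 (1.005 to 1.192). At the other end, the lowest log2 ratio of the 15 markers was −0.70, and the 1 lower marker is not named here. Of 9 eosinophil markers, 1 reached 1 CPM, which was RNASE3, and CLC and PRG3 were at 0 in both libraries. Their summed level was 113 TPM in DMSO and 94.8 TPM in omipalisib. Mast cell and basophil markers summed to 0.709 and 1.197 TPM, with TPSAB1, TPSB2 and CPA3 at 0. Erythroid and megakaryocyte markers summed to 5.39 and 3.22 TPM, with HBB at 0. Both measured genes of that list passed 1.5-fold, in opposite directions, PPBP with 47 and 16 counts and ITGA2B with 23 and 42. Lymphoid markers summed to 9.94 and 11.9 TPM, with CD3E and MS4A1 at 0. Of 3 lymphoid markers measured, 2 were higher at low counts, CD79A with 6 and 18 counts and GNLY with 5 and 17.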

How the data were processed

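RNA of OCI-AML3 was measured in 2 libraries, 1 per group. The deposited unit is counts: per the file headers the authors counted fragments per gene over exons with featureCounts 2.0.1, requiring both ends mapped and reverse-strand orientation. Gene length in bases is another deposited column, and TPM was computed from both. The submitters' processing notes name hg19 and GRCh37, but of the 58516 genes found in GENCODE release 29, 58513 overlap their GRCh38 position there, so GRCh38 is used. The aligner is not given in the sources used here. Libraries were strand-specific, per the labels' protocols, and no exon of the 8 genes overlaps an exon of another gene on its strand. Per the file headers, no option was set to count fragments with several alignments.

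Libraries were scaled with TMM (edgeR 4.0.16, R 4.3.3). The log2 ratio adds 0.5 to each count, and its 95% interval comes from the binomial share of omipalisib counts by the exact method of Clopper and Pearson. The labels name no molecular identifiers, so PCR copies can count as separate reads, and intervals cover counting error only. The procedure was tested on simulated counts that varied by counting error alone, so that test does not cover the spread between samples. The 8 genes, the lists and the rules were chosen with earlier results of these data known. Named genes were all 8, a few genes named in advance, and the neighbours within 150 kb that were called or adjacent. From each list came the called genes, up to 3 per direction, ranked by the interval bound nearer 0 with the farthest first. In a list without called genes the 2 with the highest TPM were named. Some genes, such as CYBB, were named outside these rules, and the lower gene of the myeloid markers was left unnamed. Alternatives were other scalings (total counts, DESeq2 1.42.0, upper quartile, no mitochondrially encoded genes), other added counts, other count minimums, a thinned DMSO library and other fold sizes.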

Additional observations from a re-analysis of the deposited data

How the results depend on the processing

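Of the 8 genes, PRTN3, CTSG and SERPINB1 kept their side of the 1.5-fold line under every scaling, added count, count minimum and thinning tried. Over these settings the log2 ratio ranged from −1.04 to −0.95 for CTSG, from −0.997 to −0.91 for PRTN3 and from 0.91 to 1.001 for SERPINB1. RNASE2 fell short of the line with scaling by total counts (−0.55). MPO met the whole rule, interval included, with DESeq2 size factors (−0.62) and with the DMSO library thinned (−0.63). The median of the 8 ranged between −0.53 with DESeq2 size factors and −0.45 with total counts. With a ratio of at least 2 as the rule, 0 of the 8 genes were lower and 0 higher, and in the related lists, without the 8 genes, 5 genes were lower and 4 higher, against 12 lower and 10 higher at 1.5-fold. With a ratio of at least 5 to 4, 4 of the 8 genes were lower and 1 was higher. By the same rule 22 genes of the related lists were lower and 28 higher, and of the neighbours 2 were lower and 7 higher. Shares over all genes were computed at 1.5-fold only, so the counts at other fold sizes cannot be set against them. No paired analysis was possible because each group has 1 library. Leaving out a library was not possible for the same reason. Depth limits MPO, PRSS57 and the genes at 0 counts most.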
